A study of Mus musculus with 36 samples.

Results

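The genes described here are 10 of antigen presentation and T cell costimulation, followed through hippocampal slices of wild-type and amyloid-model mice. They were chosen by name from a table of 55421 mouse genes: the class II chains H2-Aa, H2-Ab1 and H2-Eb1, the invariant chain Cd74, the peptide loaders H2-DMa and H2-DMb1, the class II regulator Ciita, and the costimulatory ligands Cd80, Cd86 and Icosl. All 10 passed the filter on low counts, as did 19478 genes in all. RNA was sequenced from slices of the right hippocampus of 18 mice. The wild-type mice were C57BL/6, and the T41B mice were of the line Thy1-hAPP Lond/Swe (Line 41), in which a Thy1 cassette, active mainly in neurons, drives human APP bearing London and Swedish mutations. Every mouse was gavaged for 3 months, from 13 to 16 months of age, with vehicle or with BD10-2 (PTX-BD10-2 in the labels), a small molecule that partially activates TrkB and TrkC, receptors of the neurotrophins. Slices then received theta-burst stimulation (TBS) in 3 rounds of 10 bursts, with 4 stimuli per burst at 100 Hz and 200 ms between bursts, or a sham procedure without it, and were frozen directly afterwards. Each of the 4 vehicle groups (genotype by stimulation) held 4 mice. Under BD10-2 there were 3 mice in each wild-type group and 5 in each T41B group.

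Class II molecules present peptides from the endosomal pathway to CD4+ T cells. Their alpha and beta chains assemble with the invariant chain, travel to endosomes and exchange its remnant for a peptide with the help of the H2-DM dimer, and their genes are switched on through Ciita, a coactivator induced by interferon-gamma. Cd80 and Cd86 bind Cd28 and Ctla4 on T cells, and Icosl binds Icos. In the brain parenchyma, microglia are the main cells able to express this set, at a low level in health and at a higher level near amyloid plaques.

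Ciita acts at promoters that hold an X box, bound by the RFX complex, and a Y box, bound by NF-Y. RefSeq promoter windows of build GRCm38.p6, running from 250 bases before to 50 bases after the start of a gene, were matched for 6 of the 10 genes. Among the class II chains, H2-Aa and H2-Eb1 matched a window, and their promoters are shown because Ciita is a member of the set. Each is given as the 150 bases before the start, 5′ to 3′ on the strand of the gene. H2-Aa lies at chr17:34287824-34287973 on the minus strand and H2-Eb1 at chr17:34305717-34305866 on the plus strand. The capitals mark matches to CTNGNAACT, letters of the X box type read from these promoters themselves, and to TGATTGG, the Y box letters.
H2-Aa: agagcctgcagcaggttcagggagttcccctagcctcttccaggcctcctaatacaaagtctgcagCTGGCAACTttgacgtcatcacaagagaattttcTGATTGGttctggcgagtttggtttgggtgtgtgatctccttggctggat
H2-Eb1: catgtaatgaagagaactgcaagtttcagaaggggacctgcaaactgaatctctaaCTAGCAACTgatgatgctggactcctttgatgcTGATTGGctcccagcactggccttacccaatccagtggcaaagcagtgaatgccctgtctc
From the start of one match to the start of the other there are 34 bases in H2-Aa and 33 in H2-Eb1. Searched on both strands, 4.1% of 32851 windows held the X box letters and 7.82% held the Y box letters. Both stood on one strand at a spacing of 33 to 34 bases in 5 windows (0.0152%). The letters of the X box were taken from H2-Aa and H2-Eb1. The spacing was taken from those of the 10 genes whose window held both, which were H2-Aa, H2-Eb1 and H2-DMb1. The windows of these genes therefore had to be among the 5. The others were those of 1700048F04Rik and BC051142. The windows of Cd80, Icosl and H2-DMa did not hold the pair.

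The class II genes sit close together on chromosome 17 of GRCm38 (GENCODE M21): H2-DMa at 34119541-34139101, H2-DMb1 at 34153072-34160230, H2-Ab1 at 34257689-34269419, H2-Aa at 34282744-34287823 and H2-Eb1 at 34305867-34316674. Ciita (10480059-10528418), Cd86 (36603869-36666081) and Cd80 (38455561-38496335) lie on chromosome 16, and Icosl (78069302-78083913) on chromosome 10. The expected counts divide reads among similar transcripts, so counts in a multigene family are uncertain where sequence is shared. Of the 50-base words in transcripts of H2-DMb1, 22.7% also occur in its neighbour H2-DMb2. The share was 0.514% for H2-Aa and 0 for H2-Ab1, H2-Eb1, Cd74, Cd80, Cd86 and Icosl. In H2-DMa, 8.43% of the words occur in Brd2, and in Ciita 1.46% occur in Dexi. H2-DMb1 is therefore the least certain of the set, and its reads and those of H2-DMb2 may be mixed.

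Library totals ran from 11597555 to 28125842 expected counts, with a median of 18082415. For 4 combinations of mouse and slice, 2 libraries carried equal labels and were summed, which left 32 samples. The labels do not say whether such a pair comes from 2 slices or from 1. Thy1, which reads the transgene cassette, ranged over 255 to 400 CPM (counts scaled to the library total with TMM) in 16 wild-type libraries. The 20 libraries of T41B mice held 880 to 2410 CPM. The lowest T41B value came from 1 of the 2 stimulated libraries of Mouse1592, whose partner held 1910 CPM. The same library held 3.7 CPM of H2-Aa against 14.9 CPM in its partner, and 18.9 against 64.6 CPM of Cd74. Whether it also holds RNA of another mouse was not tested. Without it, the number of the 10 genes called in a comparison rose from 7 to 8 for stimulation of T41B BD10-2 slices (H2-Aa was added) and from 9 to 10 for genotype in stimulated BD10-2 slices (H2-DMa was added), and was equal in all other comparisons. Another sample stood apart by its class II level, the stimulated slice of the T41B BD10-2 Mouse1572, which has no sham slice. The main results that use it are given with and without it. The 7 choroid plexus markers summed to 1210 and 988 CPM in the stimulated slices of the wild-type vehicle mice 1509 and 1513, against 14.1 to 21.4 CPM in the other 2 of that group. They were also raised in the vehicle T41B mice 1551 (132 CPM sham, 294 CPM stimulated) and 1553 (527 and 114 CPM). In bulk slices, fewer cells of a type and less RNA per cell cannot be told apart.

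T41B mice against wild-type mice gave the widest differences of the set, and the widest lay in the class II chains and the invariant chain. In sham slices of vehicle-treated mice, 7 of the 10 genes were called higher in T41B mice and 0 lower, where 5% of all tested genes were called higher and 1.24% lower (edgeR, adjusted p under 0.05). H2-Aa, H2-Ab1, H2-Eb1 and Cd74 were 25.2 to 50.9 times as abundant, H2-DMb1 4.13 times, Cd86 2.63 times and Icosl 1.38 times. Ciita, H2-DMa and Cd80 did not pass the test there. T41B samples lay wholly above wild-type samples for 6 of the 10 genes in this comparison (6.25% of all genes), for 8 in stimulated vehicle slices (6.78%), for 9 in sham BD10-2 slices (10.5%) and for 8 in stimulated BD10-2 slices (9.3%).

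H2-Aa, the alpha chain of I-A, measured 0.178, 0.504, 0.314 and 0.231 CPM in the 4 wild-type vehicle sham slices (2 to 38 reads per sample over all 14 wild-type samples). In the T41B vehicle sham slices it measured 3.69, 35.2, 10.6 and 12.1 CPM. The lowest T41B slice lay above the highest wild-type slice. The difference was 5.67 ± 0.93 on the log2 scale (SE, adjusted p = 0.000163 in edgeR). H2-Ab1, the beta chain of I-A, measured 0.711, 0.648, 0.503 and 0.116 CPM in wild-type and 3.63, 22.7, 11.4 and 11.8 CPM in T41B sham vehicle slices. Its groups did not overlap either, and the log2 fold change was 4.66 ± 0.81 (SE, adjusted p = 0.000346 in edgeR). H2-Eb1, the beta chain of I-E, measured 0.237, 0.793, 0.126 and 0.231 CPM against 2.06, 17.7, 8.18 and 7.98 CPM, a log2 fold change of 4.74 ± 0.89 (SE, adjusted p = 0.000843 in edgeR). Cd74 measured 3.68, 2.09, 1.89 and 2.48 CPM in wild-type slices. In T41B slices it measured 18, 157, 54.4 and 45.3 CPM. Again no wild-type value reached a T41B value, and the log2 fold change was 4.75 ± 0.7 (SE, adjusted p = 3.56e-05 in edgeR). For each of these 4 genes the same T41B mice marked the ends of the range, Mouse1510 the low one and Mouse1551 the high one.

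In stimulated vehicle slices the genotype difference was again in 1 direction, with 7 genes called higher and 0 lower, beside 4.74% of all genes called higher and 1.05% lower. H2-Aa measured 1.76, 1.49, 0.259 and 0.246 CPM in wild-type and 4, 9.08, 5.72 and 6.44 CPM in T41B slices. The wild-type values split into a higher and a lower pair, and the higher pair were the slices of mice 1509 and 1513, whose choroid plexus markers were high. The part of these markers in the result was not tested. The log2 fold change of H2-Aa was 2.72 ± 0.78 (SE, adjusted p = 0.0312 in edgeR), that of H2-Ab1 3.36 ± 0.77 (adjusted p = 0.0059) and that of Cd74 2.75 ± 0.62 (adjusted p = 0.00498). H2-Eb1 at 2.44 ± 0.8 had an edgeR adjusted p of 0.0697 and was not called, although its T41B and wild-type samples did not overlap. With batch as a covariate 3 of the 7 calls remained, those of H2-Ab1, Cd80 and Cd86. H2-Aa also lost its call when any of the mice 1513, 1522, 1524, 1551, 1553 or 1579 was left out. Ciita and Cd80 were called here and had missed the test in sham slices.

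Under BD10-2 the class II chains were also higher in T41B mice. In sham slices 8 of the 10 genes were called higher beside 4.31% of all genes, and in stimulated slices 9 of the 10 beside 8.19%. In both cases 0 were called lower, beside 1.14% and 2.36% of all genes. In sham slices H2-Aa measured 0.0394, 0.104 and 1.14 CPM in wild-type mice and 3.81, 8.4, 23.4, 7.59 and 7.68 CPM in T41B mice, and the log2 fold change was 4.96 ± 0.97 (SE, adjusted p = 0.00143 in edgeR). The highest wild-type sample, Mouse1590, was also the highest of its group for H2-Ab1, H2-Eb1 and Cd74. In stimulated slices H2-Aa measured 0.0811, 0.434 and 0.295 CPM in wild-type mice. The T41B slices held 12.8, 18.5, 19, 72.6 and 9.96 CPM. Every T41B value lay far above the wild-type values, and the log2 fold change was 6.66 ± 1.01 (SE, adjusted p = 3.04e-05 in edgeR). Without Mouse1572, the sample at 72.6 CPM, the fold change was 5.84 ± 0.89 (SE, adjusted p = 4.17e-05). Cd74 in these slices measured 3.16, 5.08 and 4.28 CPM in wild-type mice against 54.3, 102, 102, 320 and 44.5 CPM in T41B mice, a log2 fold change of 4.91 ± 0.74 (SE, adjusted p = 2.82e-05 in edgeR). Without Mouse1572 it was 4.19 ± 0.64 (edgeR adjusted p = 3.9e-05), and 9 of the 10 genes were called higher then as well. The vehicle and BD10-2 comparisons use different mice and share no samples, but the sham and stimulated slices of a treatment come largely from the same mice.

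**Figure D1:**
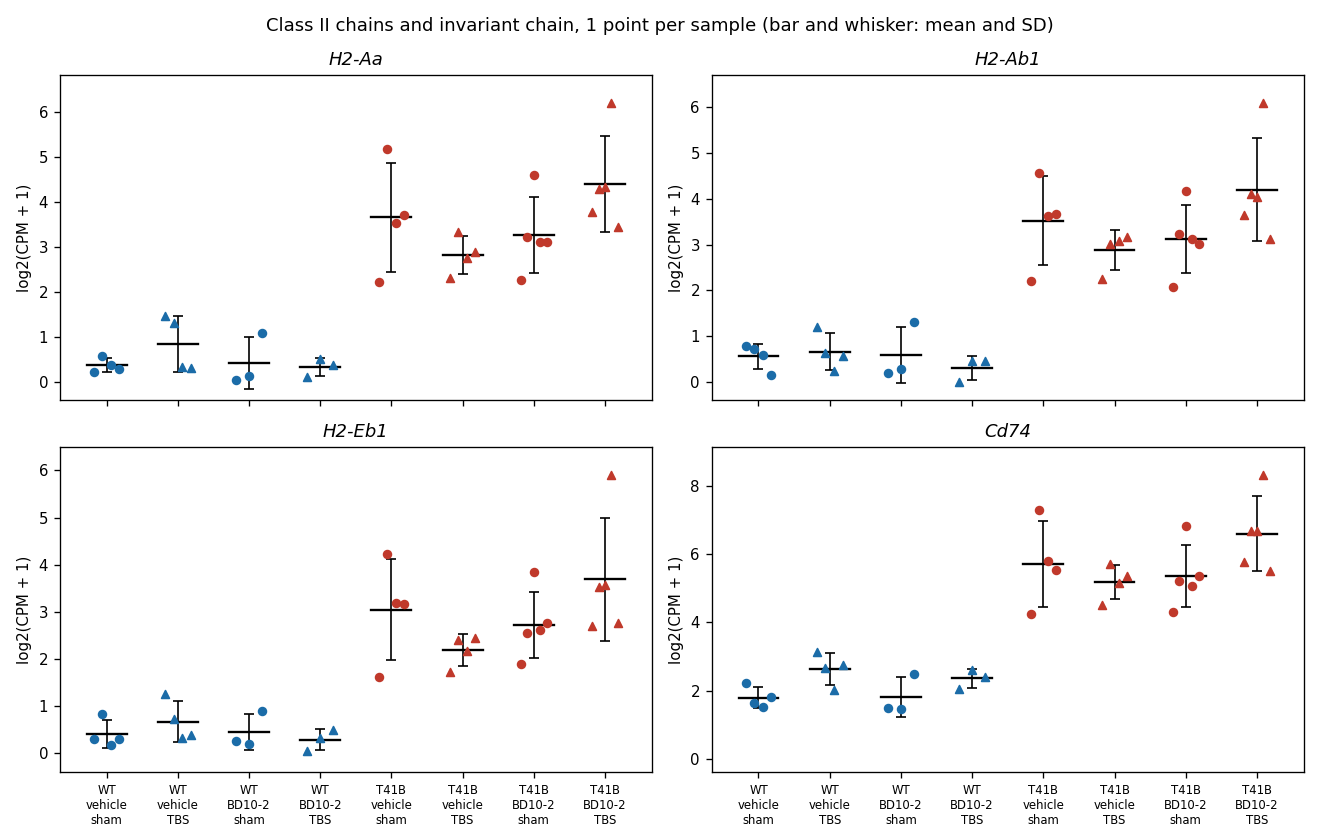
Levels of H2-Aa, H2-Ab1, H2-Eb1 and Cd74 on the log2(CPM + 1) scale, with 1 point per sample in each of the 8 groups, circles for sham and triangles for stimulated slices, blue for wild-type and red for T41B mice. Horizontal bars and whiskers give the mean and SD on that scale, and the 72.6 CPM sample of H2-Aa is the top triangle in the last group.

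The other members followed with smaller differences. H2-DMb1, the beta chain of the peptide exchange dimer, measured 0.889, 0.865, 0.503 and 1.21 CPM in wild-type and 1.94, 3.85, 5.95 and 2.68 CPM in T41B vehicle sham slices, without overlap, and rose by 2.05 ± 0.45 (log2 fold change, SE, adjusted p = 0.00405 in edgeR). In stimulated vehicle slices its groups overlapped, at 0.38 ± 0.47 (adjusted p = 0.761, 95% interval of the log2 fold change from -0.59 to 1.34). Its partner H2-DMa missed the test in all 4 genotype comparisons, at log2 fold changes of 0.45, 0.15, 0.48 and 0.51 with edgeR adjusted p of 0.107, 0.73, 0.109 and 0.0536, in the order vehicle sham, vehicle stimulated, BD10-2 sham and BD10-2 stimulated.

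Ciita differed between genotypes in stimulated slices. In vehicle sham slices it measured 0.0593, 0.288, 0.314 and 0.577 CPM in wild-type mice (1 to 10 reads) and 0.125, 0.79, 0.797 and 0.315 CPM in T41B mice, which overlapped (log2 fold change 0.72 ± 0.64, SE, adjusted p = 0.535 in edgeR). In stimulated vehicle slices it measured 0.463, 0.441, 0.432 and 0.676 CPM against 1.95, 3.35, 2.7 and 1.95 CPM. These groups did not overlap, and the log2 fold change was 2.31 ± 0.51 (SE, adjusted p = 0.00423 in edgeR). Under BD10-2 the log2 fold change was 0.59 ± 0.71 in sham slices (adjusted p = 0.695) and 2.25 ± 0.51 in stimulated slices (edgeR adjusted p = 0.00303; 1.75 ± 0.47 without Mouse1572, adjusted p = 0.0136), where the lowest T41B slice, 0.975 CPM in Mouse1592, lay within the wild-type range, whose highest value was 0.992 CPM. That sample sums the library of low Thy1, at 0.877 CPM, and its partner, at 1.02 CPM (both without TMM). Whether the genotype gap of Ciita depended on stimulation is the interaction, at 1.59 (95% interval -0.16 to 3.33, edgeR adjusted p = 0.593) under vehicle and 1.65 (95% interval -0.19 to 3.5, adjusted p = 1) under BD10-2, so a difference between sham and stimulated slices was not established.

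Among the costimulatory ligands, Cd86 was called higher in T41B mice in all 4 genotype comparisons. In sham vehicle slices it measured 3.68, 2.88, 3.77 and 3.7 CPM in wild-type mice and 7.56, 11.5, 8.08 and 9.87 CPM in T41B mice, without overlap, with a log2 fold change of 1.4 ± 0.28 (SE, adjusted p = 0.00166 in edgeR). The other Cd86 fold changes were 1.47 ± 0.25 in stimulated vehicle slices (adjusted p = 0.000219), 0.95 ± 0.28 in sham BD10-2 slices (adjusted p = 0.039) and 1.57 ± 0.26 in stimulated BD10-2 slices (edgeR adjusted p = 9.72e-05). Cd80 was scarcer. It was called in 3 comparisons, at 1.99 ± 0.4 in stimulated vehicle slices (adjusted p = 0.00134), 1.32 ± 0.4 in sham BD10-2 slices (adjusted p = 0.0473) and 2.59 ± 0.41 in stimulated BD10-2 slices (edgeR adjusted p = 5.27e-05), and missed in sham vehicle slices at 0.91 ± 0.4 (adjusted p = 0.181). The Cd80 call in sham BD10-2 slices was lost in 12 of 16 alternatives. Icosl moved least, by 0.46, 0.46, 0.47 and 0.59 in the 4 comparisons (vehicle sham, vehicle stimulated, BD10-2 sham, BD10-2 stimulated; SE 0.12 to 0.13), with edgeR adjusted p of 0.0243, 0.0202, 0.0259 and 0.00146. In sham BD10-2 slices the calls of Cd86, Cd80, Icosl and H2-DMb1, and that of H2-Eb1 without Mouse1565, were lost when single mice were left out, so that 4 genes remained called without Mouse1564, 1565 or 1590 and 5 without Mouse1563 or 1592.

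Wild-type and T41B mice share some of the 8 batches of the labels, which do not say what a batch stands for. In the 7 sets of slices of 1 batch and 1 stimulation that hold both genotypes, H2-Aa, H2-Ab1, H2-Eb1, Cd74, H2-DMb1, Cd86 and Icosl were higher in T41B mice in 7 of 7. These sets are not independent. They come from batches A, C, D and I, and A, C and I enter with sham and stimulated slices, largely of the same mice. Most of the sets hold 1 mouse of each genotype. The within-batch differences on the log2(CPM + 1) scale ran from 1.83 to 4.95 for H2-Aa, from 2.5 to 5.17 for Cd74, from 0.37 to 1.97 for Cd86 and from 0.17 to 0.69 for Icosl. Cd80 was higher in 6 of 7, H2-DMa in 5 and Ciita in 4, and the 3 sets in which Ciita was not higher were all of sham slices. With batch as a covariate, edgeR no longer called H2-Aa (adjusted p = 0.09), Cd74 (0.0595), Ciita (0.166) and Icosl (0.101) in stimulated vehicle slices, H2-DMb1 (0.0892) and Icosl (0.157) in sham vehicle slices, or Cd80 (0.131) and Cd86 (0.115) in sham BD10-2 slices.

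Markers of the cells that express class II moved with the genotype. The 8 microglial markers, Tmem119, P2ry12 and Cx3cr1 among them, summed to 257 to 338 CPM in wild-type sham slices and 519 to 912 CPM in T41B sham slices, and 7 of the 8 were called higher in T41B vehicle sham slices, C1qa by 2.08 ± 0.22 on the log2 scale (SE). In the other genotype comparisons 4 (vehicle stimulated), 6 (BD10-2 sham) and 8 (BD10-2 stimulated) of the 8 were called higher. The part of this list in the class II result was not tested. The highest microglial sum of the T41B vehicle sham slices, 912 CPM, and the lowest, 519 CPM, belonged to Mouse1551 and Mouse1510, which also held the highest and lowest class II levels. Some defining markers of other presenting cells were at or near 0: the dendritic cell genes Xcr1 and Clec9a and the B cell gene Ms4a1 never exceeded 0.126 CPM. Other markers of these lists stood higher. Of the dendritic cell genes, Flt3 ran from 6.65 to 15.2 CPM, Zbtb46 from 6.27 to 13.7 CPM and Batf3 from 0.217 to 1.07 CPM. The B cell genes Pax5 and Cd79a reached 1.14 and 0.825 CPM. The 8 dendritic cell markers summed to 113 to 150 CPM in wild-type and 130 to 196 CPM in T41B vehicle sham slices, of which Fscn1, also a neuronal gene, made up most. Of the 5 that were tested, 0 were called higher and 1, Flt3, lower in that comparison. In stimulated slices another of the 5, Ccr7, a receptor that guides dendritic cells to lymph nodes, was called higher in T41B mice, at 14.4 ± 5.37 against 2.06 ± 0.586 CPM under vehicle (SD, n = 4 and 4) and 18.6 ± 7.83 against 3.83 ± 1.33 CPM under BD10-2 (SD, n = 5 and 3). Its log2 fold changes were 2.81 ± 0.38 and 2.28 ± 0.39 (SE, edgeR adjusted p of 1.63e-05 and 0.000136). The sum of the 6 B cell markers, 13.1 to 42.2 CPM in T41B vehicle sham slices and 5.28 to 13.4 CPM in wild-type ones, consisted mainly of Ighm, the heavy chain of IgM, which reached 41.4 CPM in the sham slice of Mouse1551. Ighm was called higher in T41B mice in that comparison, at a log2 fold change of 1.44 ± 0.41 (SE, adjusted p = 0.031 in edgeR). The T cell markers summed to 4.94 CPM at most over 8 genes, in a T41B vehicle sham slice. Cd3e (0.839 CPM), Trac (1.04 CPM), Cd8a (0.741 CPM) and Cd2 (0.395 CPM) were highest of all samples in the sham slice of Mouse1551. Cd3d, Cd3g, Lck and Cd4 were highest in other slices. Monocyte markers other than Vcan were at or below 0.719 CPM. Vcan, at 22.7 to 54.8 CPM over all samples and so far above the other monocyte markers, was called higher in T41B mice in both stimulated comparisons, by 0.53 in each. The 5 neutrophil markers summed to 0.349 CPM at most. Border-associated macrophage markers summed to 1.43 to 4.93 CPM in T41B vehicle sham slices and 1.73 to 6.66 CPM in wild-type ones, with 0 of 5 tested genes called; in stimulated BD10-2 slices 2 of the 5 were called higher in T41B mice. The astrocyte gene Gfap was higher in T41B mice by 2.06 ± 0.19 in vehicle sham slices (edgeR adjusted p = 4.4e-08). The defining markers of hippocampal neurons were present in every sample, with Slc17a7 at 642 to 1310 CPM and Prox1 at 75.7 to 202 CPM. Of the 7 neuronal markers, 2 were called lower in T41B mice in stimulated vehicle slices (Snap25 by -0.47 and Gad1 by -0.37) and 2 in sham BD10-2 slices (Neurod6 by -0.51 and Gad1 by -0.4), with 0 in the other 2 comparisons. Of 7 choroid plexus markers, Ttr was called higher in T41B vehicle sham slices, by 8.53 ± 2.43 (SE, adjusted p = 0.0313 in edgeR). In vehicle stimulated slices 2 of the 7 were called lower in T41B mice, and 1 of 3 B cell markers tested was called higher. The part of these lists in the class II result was not tested.

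Stimulation raised the costimulatory ligand Cd86 and, to a smaller extent, Icosl in both genotypes and under both treatments, and it raised Ciita in T41B mice. Cd86 was 2.73 to 4.21 times as abundant in stimulated as in sham slices, and Icosl 1.41 to 1.61 times. All 14 mice with both slices had more Cd86, more Icosl and more Ciita in the stimulated slice. The class II chains went in different directions: their fold changes were positive in wild-type vehicle and T41B BD10-2 slices and negative in wild-type BD10-2 and T41B vehicle slices, and only those of H2-Ab1 and H2-Eb1 in T41B BD10-2 slices were called. With the mouse as a block these 2 calls were lost (edgeR adjusted p of 0.331 and 0.645). H2-Aa, H2-Ab1 and H2-Eb1 were then called lower in T41B vehicle slices (edgeR adjusted p of 0.0177, 0.0411 and 0.0153). Under the block H2-Aa was positive in wild-type BD10-2 slices (1.58 ± 1.44, edgeR adjusted p = 0.589, against -0.3 ± 1.52 without the block), and it was higher in the stimulated slice of both mice with a pair. Of the 10 genes, 2 were called higher by stimulation in wild-type vehicle slices, 2 in wild-type BD10-2 slices, 3 in T41B vehicle slices and 7 in T41B BD10-2 slices, beside 8.21%, 6.29%, 11.7% and 13.3% of all genes. H2-DMb1 was called lower in T41B vehicle slices and 0 genes were called lower in the other arms, beside 4.1%, 2.58%, 9.83% and 9.52% of all genes in the same order. Stimulated samples lay wholly above sham samples for 2, 3, 3 and 4 of the 10 genes, beside 9.33%, 17.7%, 11.7% and 9.35% of all genes.

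Cd86 in wild-type vehicle mice measured 3.68, 2.88, 3.77 and 3.7 CPM in sham slices. The stimulated slices of the same mice measured 11, 12.7, 6.44 and 13.3 CPM. The groups did not overlap, and the log2 fold change was 1.62 ± 0.28 (SE, adjusted p = 0.000115 in edgeR). In wild-type BD10-2 mice it measured 4.23, 5.74 and 3.03 CPM in sham and 7.7, 16.9 and 11.3 CPM in stimulated slices, 1.45 ± 0.3 on the log2 scale (edgeR adjusted p = 0.00154). T41B vehicle mice held 7.56, 11.5, 8.08 and 9.87 CPM in sham and 28.1, 41.8, 25.5 and 24.5 CPM in stimulated slices, 1.69 ± 0.25 (adjusted p = 8.34e-06). T41B BD10-2 mice held 7.47, 10.5, 8.67, 6.68 and 8.47 CPM in sham and 45.8, 44.6, 31.7, 33.8 and 20.8 CPM in stimulated slices, 2.07 ± 0.23 (edgeR adjusted p = 2.91e-08). In each of these arms the lowest stimulated slice lay above the highest sham slice. Cd86 was called under every alternative in all 4 arms. The response of Cd86 differed between genotypes by 0.08 (95% interval -0.7 to 0.85, edgeR adjusted p = 0.965) under vehicle and by 0.62 (95% interval -0.14 to 1.39, adjusted p = 1) under BD10-2.

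Icosl was the most abundant of the 3 ligands per length in sham wild-type vehicle slices. It measured 8.83, 7.85, 10.5 and 12.5 CPM in wild-type vehicle sham slices and 13.7, 13.1, 13.2 and 16.3 CPM in the stimulated ones, 0.5 ± 0.13 on the log2 scale (edgeR adjusted p = 0.0073). In T41B vehicle mice it rose from 14.4, 14.5, 11.7 and 14.2 CPM to 17.8, 19.4, 17.1 and 23 CPM, by 0.5 ± 0.12 (adjusted p = 0.00358). The fold change was 0.56 ± 0.14 in wild-type BD10-2 mice (adjusted p = 0.00937) and 0.69 ± 0.11 in T41B BD10-2 mice (edgeR adjusted p = 1.5e-05). Sham and stimulated slices did not overlap in any arm. The call was lost in wild-type vehicle slices without Mouse1509 and with only the groups compared (edgeR adjusted p of 0.0586 and 0.0596), and in wild-type BD10-2 slices without Mouse1571 or Mouse1590, and with the mouse as a block in the latter arm (0.41 ± 0.14, adjusted p = 0.0927).

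Ciita, the regulator of class II transcription, went from 0.125, 0.79, 0.797 and 0.315 CPM in sham to 1.95, 3.35, 2.7 and 1.95 CPM in stimulated T41B vehicle slices, a rise of 2.25 ± 0.51 on the log2 scale (edgeR adjusted p = 0.00173). In T41B BD10-2 mice it went from 0.232, 0.259, 0.52, 0.165 and 0.265 CPM to 2.89, 3.72, 2.71, 7.91 and 0.975 CPM, 3.62 ± 0.49 (edgeR adjusted p = 1.24e-06), and 3.12 ± 0.45 without Mouse1572 (adjusted p = 5.25e-06). Sham and stimulated values did not overlap in either arm. In wild-type mice the differences were 0.66 ± 0.64 under vehicle (edgeR adjusted p = 0.553) and 1.97 ± 0.68 under BD10-2 (adjusted p = 0.0702), where the groups did not overlap (0.216, 0.0522 and 0.271 CPM against 0.365, 0.992 and 0.916 CPM). Cd80, the other Cd28 ligand, was called in T41B BD10-2 mice, with sham slices of 1.47, 2.02, 1.85, 1.48 and 1.48 CPM and stimulated slices of 4.73, 3.84, 2.94, 3.52 and 2.75 CPM, 1.09 ± 0.31 (edgeR adjusted p = 0.00979). It was higher in the stimulated slice in 8 of 8 T41B mice and in 1 of 6 wild-type mice. The difference between genotypes in this response was 1.08 (95% interval -0.09 to 2.25, edgeR adjusted p = 0.59) under vehicle and 1.27 (95% interval 0.11 to 2.43, unadjusted p = 0.0314, edgeR adjusted p = 1) under BD10-2, and it was not called.

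**Figure D2:**
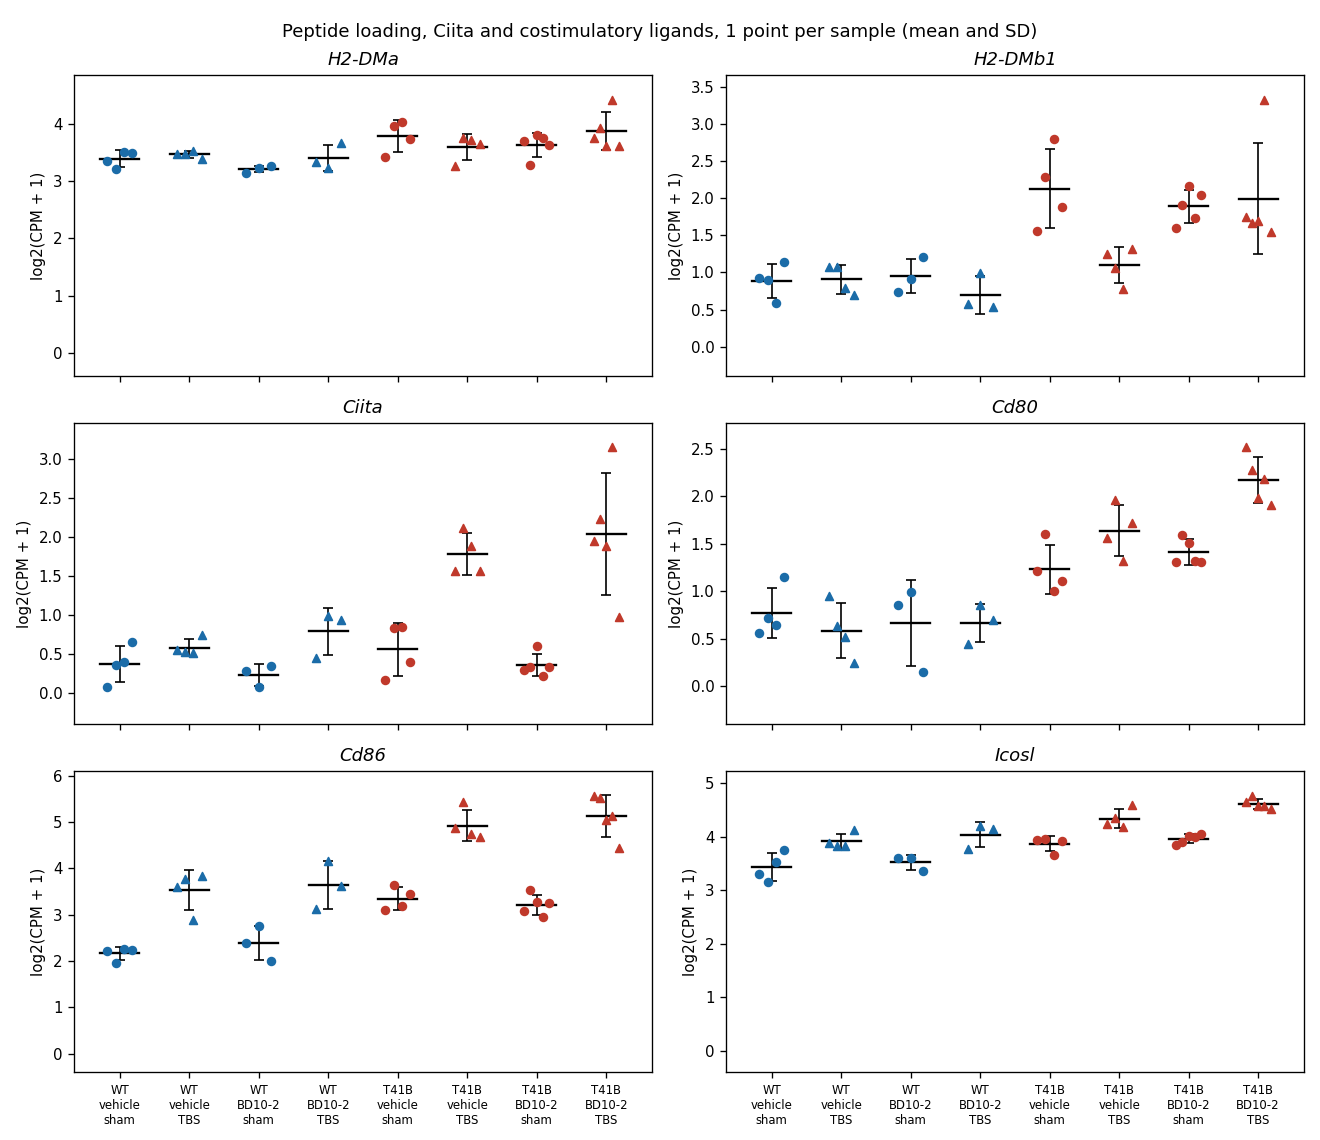
Levels of H2-DMa, H2-DMb1, Ciita, Cd80, Cd86 and Icosl on the log2(CPM + 1) scale, 1 point per sample, with the mean and SD of each group (circles sham, triangles stimulated, blue wild-type, red T41B). Cd86 lies higher in each stimulated group than in the sham group beside it, and Ciita does so by most in the 2 T41B arms.

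The class II chains and Cd74 had negative fold changes with stimulation in T41B vehicle mice and positive ones in T41B BD10-2 mice, and the difference between these arms was not called (edgeR adjusted p = 1 for each gene). In vehicle-treated T41B mice H2-Aa was 15.4 ± 13.7 CPM in sham and 6.31 ± 2.11 CPM in stimulated slices (SD, n = 4), and its fitted log2 difference was -1.3 ± 0.63 (SE, adjusted p = 0.142 in edgeR, 95% interval -2.59 to -0.01). H2-Ab1, H2-Eb1 and Cd74 stood at -0.92, -1.31 and -0.9, with adjusted p of 0.282, 0.151 and 0.257. Each of the 4 genes was lower in the stimulated slice in 3 of 4 mice, and Mouse1510, the lowest sham slice, was the exception. With the mouse as a block, 3 of them were called lower, H2-Aa at -1 ± 0.29 (edgeR adjusted p = 0.0177), H2-Ab1 at -0.75 ± 0.26 (adjusted p = 0.0411) and H2-Eb1 at -1.08 ± 0.31 (adjusted p = 0.0153), while Cd74 at -0.58 ± 0.26 was not (adjusted p = 0.112). H2-DMb1 was the gene called lower without the block as well. It measured 1.94, 3.85, 5.95 and 2.68 CPM in sham and 1.36, 1.08, 0.715 and 1.5 CPM in stimulated slices, without overlap, and its log2 fold change was -1.63 ± 0.43 (SE, adjusted p = 0.00593 in edgeR). Without Mouse1553 the call was lost (adjusted p = 0.119). The response to stimulation under vehicle differed between T41B and wild-type mice by -2.95 for H2-Aa (95% interval -5.71 to -0.18), -2 for Cd74 (-3.87 to -0.12) and -1.67 for H2-DMb1 (-3.01 to -0.33), with edgeR adjusted p of 0.543, 0.546 and 0.507. These 3 of the 10 genes passed at an unadjusted p under 0.05 in that interaction, beside 8.64% of all genes. In the same interaction under BD10-2, 1 gene, Cd80, passed beside 4.34%.

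In BD10-2-treated T41B mice the mean of every one of the 10 genes was higher in stimulated slices. For H2-DMb1 this direction rested on Mouse1572, since its log2 fold change was 0.35 ± 0.36 with that mouse and -0.34 ± 0.28 without it (SE). H2-Ab1 measured 3.2, 8.45, 16.9, 7.75 and 7.04 CPM in sham and 11.5, 16.1, 15.4, 67.4 and 7.71 CPM in stimulated slices. These values overlap, since the sham slice of Mouse1564 lies above all stimulated slices but that of Mouse1572. The log2 fold change was 1.45 ± 0.52 (SE, adjusted p = 0.0429 in edgeR), that of H2-Eb1 1.54 ± 0.56 (adjusted p = 0.0449), that of Cd74 1.37 ± 0.49 (adjusted p = 0.0425) and that of H2-Aa 1.39 ± 0.55 (adjusted p = 0.0653, not called). Without Mouse1572 the 3 calls were lost, at 0.55 ± 0.47 for H2-Ab1 (adjusted p = 0.452), 0.37 ± 0.47 for H2-Eb1 (adjusted p = 0.634) and 0.65 ± 0.45 for Cd74 (edgeR adjusted p = 0.338). They were also lost without Mouse1557 or Mouse1570, those of H2-Ab1 and Cd74 without Mouse1563, and all 3 with the mouse as a block, which uses the 4 mice with both slices (H2-Ab1 0.36 ± 0.25, adjusted p = 0.331). In those 4 mice the 4 genes were higher in the stimulated slice in 3 and lower in Mouse1564. H2-DMb1 was lower in the stimulated slice in all 4.

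**Figure D3:**
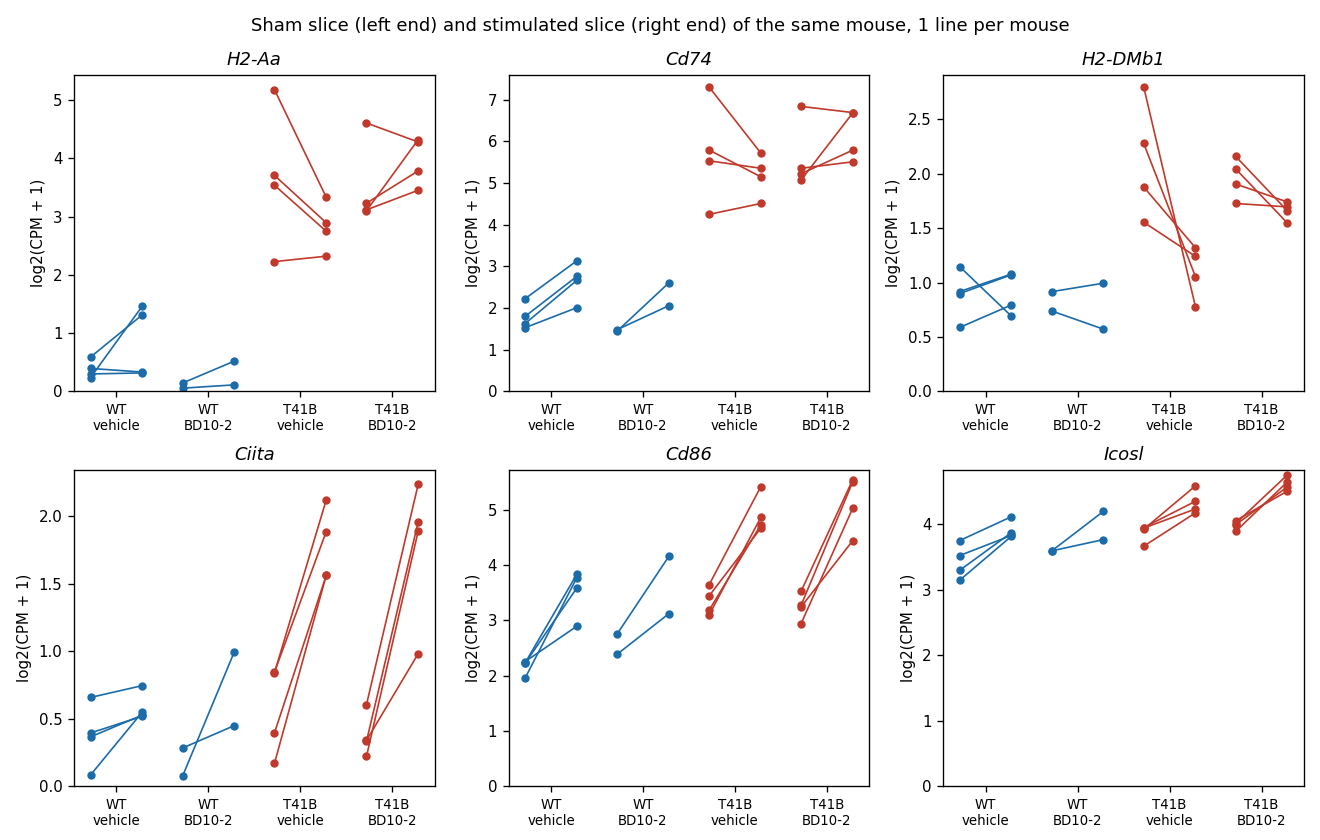
Sham and stimulated slices of the same mouse joined by a line, for H2-Aa, Cd74, H2-DMb1, Ciita, Cd86 and Icosl on the log2(CPM + 1) scale, in the 4 combinations of genotype (blue wild-type, red T41B) and treatment. Ciita, Cd86 and Icosl rise in all 14 mice, whereas H2-Aa and Cd74 fall in 3 of 4 T41B vehicle mice and rise in 3 of 4 T41B BD10-2 mice.

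Microglial markers fell with stimulation while Cd86 and Ciita rose. One dendritic cell marker, Ccr7, rose with stimulation in every arm, by 5.33 to 6.56 on the log2 scale. A second of the 5 tested was called higher in 3 arms, Fscn1 in wild-type vehicle and T41B BD10-2 slices (0.43 and 0.36) and Zbtb46 in T41B vehicle slices (0.49). Of the 8 microglial markers, 7 were called lower in wild-type vehicle slices and 6 in each of the other 3 arms, with median log2 fold changes of -0.93, -1.02, -1.08 and -0.68 (wild-type vehicle, wild-type BD10-2, T41B vehicle and T41B BD10-2). Their sum in stimulated slices was 118 to 182 CPM in wild-type vehicle, 134 to 163 CPM in wild-type BD10-2, 268 to 374 CPM in T41B vehicle and 330 to 543 CPM in T41B BD10-2 mice. Mouse1572 held the lowest microglial sum of its group, 330 CPM, together with the highest class II levels. Markers of other cell types also moved with stimulation. The endothelial gene Cdh5 was called higher in all 4 arms (1.54, 1.84, 2.62 and 2.04 in the same order), and Pecam1 in both T41B arms (1.37 and 0.93), while Tek was called lower in wild-type vehicle and T41B BD10-2 slices. The B cell marker Ighm was called lower in T41B vehicle slices, from 21 ± 13.7 to 5.28 ± 2.54 CPM (SD, n = 4), and in T41B BD10-2 slices, at log2 fold changes of -1.98 and -1.33 (edgeR adjusted p of 0.000873 and 0.00746). Another of the 3 B cell markers tested, which averaged under 1 CPM, was called higher in T41B BD10-2 slices. Of 3 T cell markers tested, Lck was called higher in T41B BD10-2 slices (1.18 ± 0.3, adjusted p = 0.00392), and 1 other was called lower in T41B vehicle slices. The oligodendrocyte gene Mog was called lower in T41B vehicle slices (-0.65 ± 0.23, edgeR adjusted p = 0.0397), and 1 of 5 border-associated macrophage markers was called higher in T41B BD10-2 slices. Of 5 astrocyte markers, 3, 0, 3 and 2 were called higher, where 8.21%, 6.29%, 11.7% and 13.3% of all genes were. Of 7 neuronal markers 0, 1, 1 and 2 were called lower, where 4.1%, 2.58%, 9.83% and 9.52% of all genes were. The part of all these markers in the results of the 10 genes was not tested. In wild-type vehicle slices, H2-Aa at 1.65 ± 1.2 and Cd74 at 1.1 ± 0.73 were not called (edgeR adjusted p of 0.412 and 0.358). Their 95% intervals ran from -0.84 to 4.13 and from -0.41 to 2.6. In these slices 7 of 7 choroid plexus markers were called higher with stimulation, and the part of these markers in the result was not tested.

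**Figure D4:**
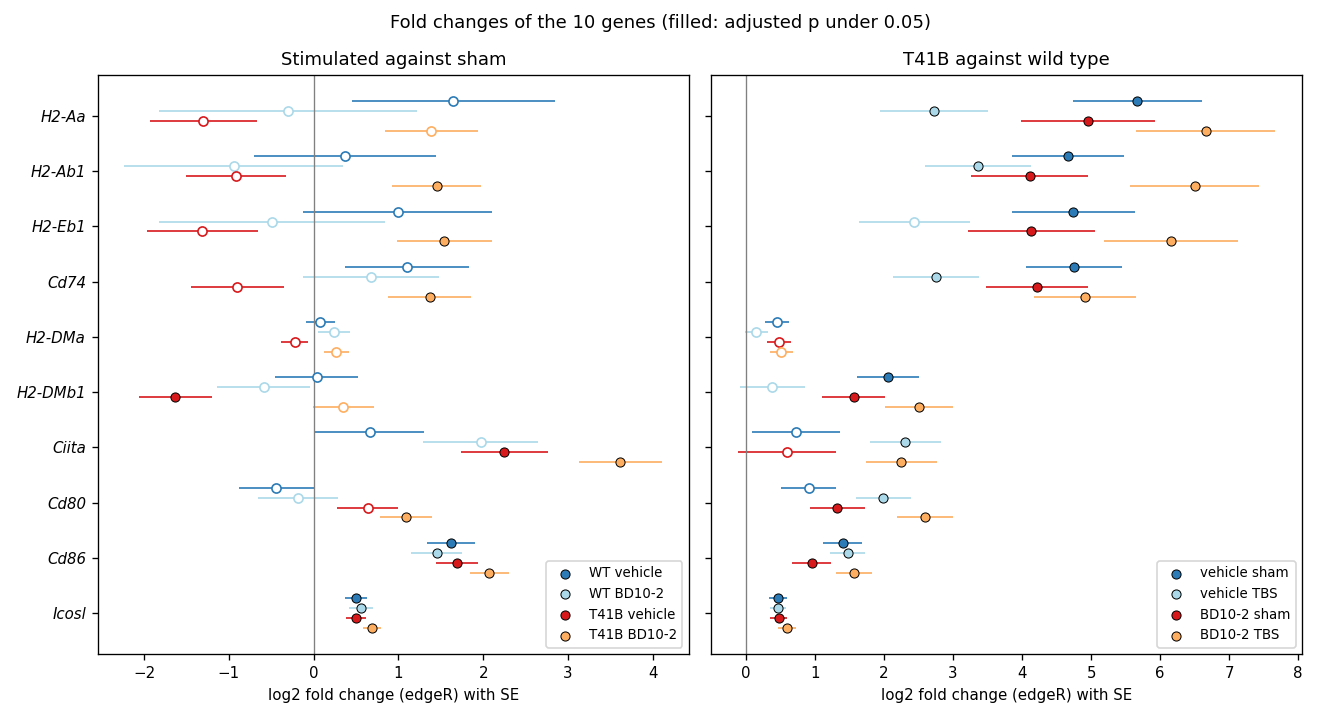
Log2 fold changes with SE of the 10 genes for stimulated against sham slices (left, 4 arms) and T41B against wild-type mice (right, 4 combinations), with filled points for an edgeR adjusted p under 0.05. On the right all values are positive and the class II chains with Cd74 reach furthest, up to 6.66 for H2-Aa, whereas on the left these genes lie on both sides of 0 and Cd86 and Icosl lie above it in every arm.

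BD10-2 against vehicle gave 0 calls among the 10 genes, and among all genes, in each of the 4 combinations (0% in each by edgeR). DESeq2 called 0 of the 10 as well. Among all genes it called 25 in stimulated wild-type slices and 0 in the other 3 combinations. Treatment and batch cannot be told apart here, since each batch holds 1 treatment. At an unadjusted p under 0.05, 0 of the 10 genes passed in the sham T41B, sham wild-type and stimulated wild-type slices (2.21%, 1.92% and 5.61% of all genes), and 7 passed in stimulated T41B slices, where 3.9% of all genes did. In that comparison the mean of all 10 genes was higher under BD10-2. H2-Eb1 measured 2.32, 4.31, 3.52 and 4.49 CPM under vehicle and 5.53, 10.5, 11, 59.2 and 5.79 CPM under BD10-2. Its groups did not overlap, nor did those of H2-Aa and H2-DMb1, beside 0.734% of all genes with BD10-2 wholly above vehicle. The log2 fold change was 2.33 ± 0.63 for H2-Eb1 (unadjusted p = 0.000931, edgeR adjusted p = 0.75), 2.07 ± 0.61 for H2-Aa (unadjusted p = 0.00207, adjusted p = 0.845), 1.58 ± 0.41 for H2-DMb1 (unadjusted p = 0.000631, adjusted p = 0.719) and 1.75 ± 0.54 for Cd74 (unadjusted p = 0.00286, edgeR adjusted p = 1). None holds after adjustment over all genes.

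These values depended on Mouse1572. Without it the log2 fold change was 1.16 ± 0.51 for H2-Eb1, 1.25 ± 0.56 for H2-Aa, 0.89 ± 0.32 for H2-DMb1 and 1.03 ± 0.48 for Cd74, with edgeR adjusted p from 0.885 to 0.913, and 6 of the 10 genes passed at an unadjusted p under 0.05. The 3.9% of all genes given above belongs to the fit with all mice, and the share in the fit without Mouse1572 is not given here. The values of Cd80, Cd86 and Icosl were nearly equal with and without Mouse1572 (0.72 and 0.72, 0.23 and 0.25, 0.28 and 0.29). That of Ciita went from 0.53 with it to 0.02 without it, and that of H2-DMa from 0.31 to 0.14. In sham T41B slices H2-Aa, H2-Eb1 and Cd74 stood at -0.62, -0.52 and -0.52, with adjusted p of 1. The difference between treatments in the stimulation response of T41B mice was 2.69 for H2-Aa (95% interval 0.97 to 4.41), 2.85 for H2-Eb1 (1.09 to 4.61), 2.27 for Cd74 (0.75 to 3.79) and 1.99 for H2-DMb1 (0.84 to 3.13), each with an edgeR adjusted p of 1. At an unadjusted p under 0.05, 6 of the 10 genes passed in this interaction beside 2.7% of all genes, and 0 in the matching interaction of wild-type mice beside 1.73%. Without Mouse1572, 5 genes passed in this interaction, and the difference was 1.87 for H2-Aa, 1.68 for H2-Eb1, 1.55 for Cd74 and 1.3 for H2-DMb1 (adjusted p of 1). The share of all genes in that fit is not given here either, and 2.7% is from all mice. The stimulated T41B BD10-2 group also enters the stimulation and genotype comparisons, so these values share its samples.

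**Figure D5:**
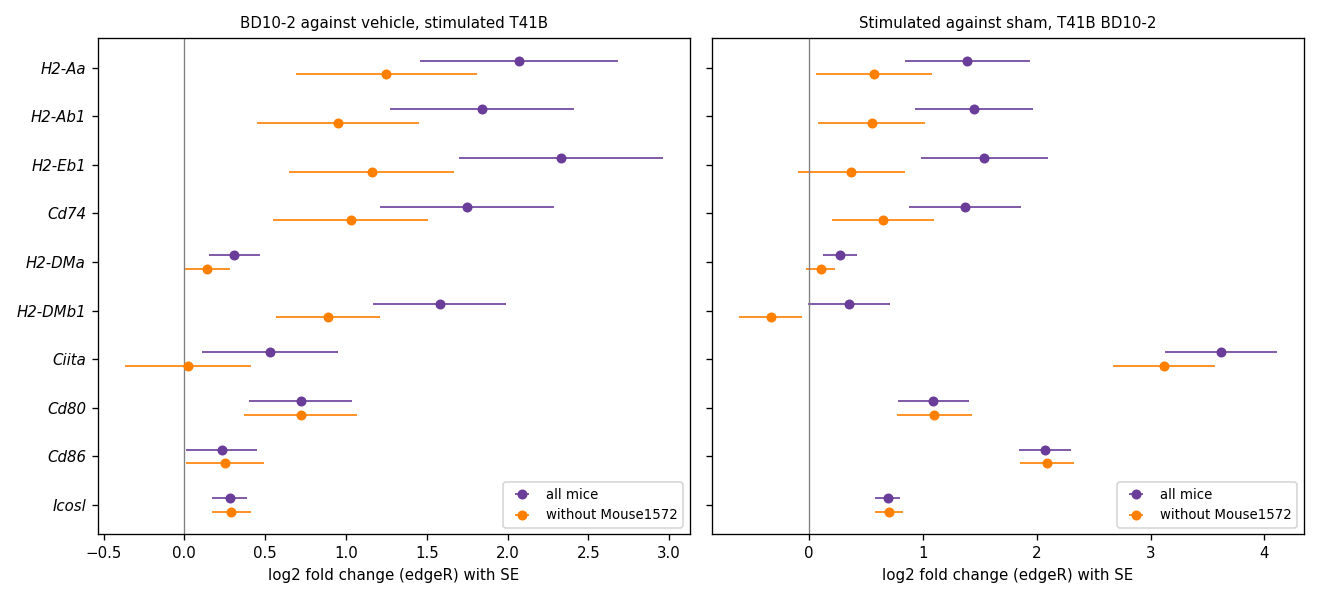
Log2 fold changes with SE of the 10 genes for BD10-2 against vehicle in stimulated T41B slices (left) and for stimulated against sham slices in T41B BD10-2 mice (right), with all mice (purple) and without Mouse1572 (orange). The class II chains and Cd74 lie closer to 0 without that mouse, H2-Aa from 2.07 to 1.25 on the left, whereas Cd80, Cd86 and Icosl stay in place.

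Levels were compared between genes per kilobase of annotated exon. In T41B vehicle sham slices Cd74 led with 40.9 ± 36.3 CPM per kb (SD, n = 4). H2-Ab1 (4.83 ± 3.05), H2-Eb1 (4.61 ± 3.32), H2-Aa (4.05 ± 3.61), H2-DMa (3.77 ± 0.737), Icosl (2.97 ± 0.288), Cd86 (2.53 ± 0.492) and H2-DMb1 (2.14 ± 1.04) followed, and neighbours in that order differed by less than the sum of their SDs. Cd80 at 0.373 ± 0.122 and Ciita at 0.0532 ± 0.0357 CPM per kb were the lowest. In wild-type vehicle sham slices the order was another. H2-DMa (2.76 ± 0.296) and Icosl (2.15 ± 0.439) led, Cd74 (1.51 ± 0.477) and Cd86 (0.959 ± 0.114) followed, and the class II chains lay at 0.0808 to 0.193 CPM per kb, above Ciita at 0.0325 ± 0.0222. In stimulated T41B vehicle slices Cd86 reached 8.19 ± 2.2 CPM per kb and stood behind Cd74 alone.

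The rest of the class II pathway was read from a list of 18 genes, of which 17 passed the filter (H2-Eb2 did not). In T41B against wild-type mice 8 were called higher in vehicle sham, 6 in vehicle stimulated, 7 in BD10-2 sham and 7 in BD10-2 stimulated slices, and 0 lower in each, beside 5%, 4.74%, 4.31% and 8.19% of all genes called higher. The list medians were 0.4, 0.22, 0.24 and 0.28 on the log2 scale, and those of all genes 0, -0.03, 0.01 and -0.02. The 2 chains of the H2-O dimer that restrains H2-DM, H2-Ob and H2-Oa, were higher by 3.14 ± 0.4 (edgeR adjusted p = 4.95e-06) and 1.95 ± 0.43 (adjusted p = 0.00463) in vehicle sham slices. Ctss, the protease that trims the invariant chain, was called in all 4 comparisons, at 1.95, 1.45, 1.69 and 1.81 on the log2 scale. Of the promoter factors, Rfx5, Rfxap, Rfxank, Nfyb, Nfyc and Creb1 were called in none of them and Nfya in vehicle sham slices (0.4 ± 0.11, adjusted p = 0.0301). With stimulation 1, 0, 1 and 2 of the 17 were called higher and 1, 0, 1 and 0 lower (wild-type vehicle, wild-type BD10-2, T41B vehicle, T41B BD10-2). Of all genes, 8.21%, 6.29%, 11.7% and 13.3% were called higher and 4.1%, 2.58%, 9.83% and 9.52% lower. Rfx5, a subunit of the RFX complex, was higher in T41B vehicle (0.38 ± 0.1, edgeR adjusted p = 0.00539) and T41B BD10-2 slices (0.4 ± 0.09, adjusted p = 0.0012). The protease genes Ctsb (0.4 ± 0.11 in T41B BD10-2 slices, adjusted p = 0.0108) and Ctsl (0.46 ± 0.14 in wild-type vehicle slices, adjusted p = 0.0279) were higher. Lgmn, a further endosomal protease, was lower in T41B vehicle slices (-0.46 ± 0.13, adjusted p = 0.00798), and Marchf1, a ligase that removes class II from the surface, was lower in wild-type vehicle slices (-0.27 ± 0.08, edgeR adjusted p = 0.0191).

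The 8 genes that lead from interferon-gamma to Ciita were called higher by stimulation in 4, 4, 5 and 6 cases (wild-type vehicle, wild-type BD10-2, T41B vehicle, T41B BD10-2) and by genotype in 3, 4, 3 and 7 cases (vehicle sham, vehicle stimulated, BD10-2 sham, BD10-2 stimulated), with 0 lower in all 8 comparisons. Of all genes, 8.21%, 6.29%, 11.7% and 13.3% were called higher by stimulation and 5%, 4.74%, 4.31% and 8.19% by genotype, in the same orders. Irf1, a factor at the interferon-responsive Ciita promoter, rose with stimulation by 1.76 ± 0.17 in wild-type vehicle (edgeR adjusted p = 2.05e-08) and 1.83 ± 0.17 in T41B vehicle slices (adjusted p = 3.89e-09). Socs1, a feedback inhibitor of this pathway, rose by 1.75 ± 0.31 and 2.05 ± 0.28 in the same arms (edgeR adjusted p of 0.000169 and 2.86e-06). Ifng itself was scarce, at a median of 0.076 CPM, with 0 reads in 10 of 32 samples. It reached 2.2 CPM (35 reads) in the stimulated slice of Mouse1572, the sample with the highest class II levels, against 0.0296 to 0.697 CPM in the other 4 of that group. Ifng was below the level of the naming rule and is given because Mouse1572 stood out.

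Of 16 other costimulatory and coinhibitory ligands, 13 passed the filter. Stimulation raised 6, 6, 8 and 9 of them (wild-type vehicle, wild-type BD10-2, T41B vehicle, T41B BD10-2) and lowered 1 in each arm, where 8.21%, 6.29%, 11.7% and 13.3% of all genes were called higher and 4.1%, 2.58%, 9.83% and 9.52% lower. Cd274, which encodes the inhibitory ligand PD-L1, rose by 3.8 ± 0.46 in wild-type vehicle (edgeR adjusted p = 6.6e-07) and 5.11 ± 0.41 in T41B BD10-2 slices (adjusted p = 1.05e-10). Cd40, the receptor on presenting cells for T cell help, rose by 3.35 ± 0.69 (adjusted p = 0.00115) and 5.67 ± 0.48 (adjusted p = 2.41e-10) in the same arms. Vsir, which encodes the inhibitory ligand VISTA, was the gene called lower, at -1.52 ± 0.21 in wild-type vehicle (adjusted p = 5.29e-06) and -1.74 ± 0.18 in T41B BD10-2 slices (edgeR adjusted p = 8.85e-09). Between genotypes 6, 7, 5 and 9 of the 13 were higher in T41B mice (vehicle sham, vehicle stimulated, BD10-2 sham, BD10-2 stimulated) and 0 lower, beside 5%, 4.74%, 4.31% and 8.19% of all genes called higher. In sham slices these included Lgals9 (1.36 ± 0.33 under vehicle, adjusted p = 0.0112) and Icam1 (1.42 ± 0.22 under BD10-2, edgeR adjusted p = 7.56e-05), and in stimulated slices Cd40 (2.63 ± 0.43 under vehicle, adjusted p = 0.000159). The T cell partners of these ligands were scarce. Cd28, Ctla4, Icos and Cd40lg failed the filter and reached at most 0.592, 0.697, 0.797 and 0.106 CPM. Of the 3 tested, 0, 0, 1 and 2 were called higher by stimulation and 1, 2, 1 and 2 by genotype, in the orders above, and 0 lower. Tnfrsf9, the 4-1BB receptor, which other cells also express, rose with stimulation in T41B vehicle (2.59 ± 0.57, edgeR adjusted p = 0.00136) and T41B BD10-2 slices (3.16 ± 0.5, adjusted p = 1.57e-05). It was higher in T41B mice in stimulated slices, by 1.91 ± 0.53 under vehicle and 2.64 ± 0.57 under BD10-2 (edgeR adjusted p of 0.0271 and 0.0018). Pdcd1, which encodes the receptor of PD-L1, made up the other calls, at a mean of 0.766 CPM.

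Within groups the class II chains and Cd74 varied together. Deviations of log2(CPM + 1) from the group mean over the 32 samples, which share libraries and in part mice, gave Pearson r of 0.93 to 0.96 among H2-Aa, H2-Ab1, H2-Eb1 and Cd74. Ciita stood at 0.68 to 0.72 with these 4 genes, H2-DMb1 at 0.68 to 0.77 and H2-DMa at 0.61 to 0.67. Cd86 stood at 0.6 with Cd80 and 0.47 with Icosl, and at 0.16 to 0.32 with the class II chains and Cd74. Icosl stood at -0.01 to 0.1 with the class II chains and Cd74. Without Mouse1572 (31 samples) r was 0.93 to 0.95 among the class II chains and Cd74, but only 0.5 to 0.58 for Ciita, 0.5 to 0.56 for H2-DMb1 and 0.44 to 0.48 for H2-DMa with them. The nearest genes that follow were taken from all 32 samples. The non-member genes nearest to H2-Aa by this measure were P3h1 (0.78), H2-Q5 (0.74) and H2-Q7 (0.73), and those nearest to Cd74 were H2-K1 (0.78), H2-Q5 (0.78) and H2-Oa (0.76). H2-K1, H2-Q5 and H2-Q7 are class I genes of the same multigene region. Nearest to Cd86 were Srgn (0.86), Rassf4 (0.81) and Tnfaip3 (0.8), and nearest to Icosl were Pcdhgc3 (0.73), Afap1 (0.72) and Adgrg1 (0.7). Nearest to Cd80, which has few reads, were the unnamed loci Gm44175 (0.78), Gm34589 (0.75) and Gm37760 (0.74).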

How the data were processed

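RNA was measured in 36 libraries of 18 mice. The table the authors deposited holds expected counts from RSEM for each gene and library. They are unscaled estimates, and 5.69% of them hold decimals. The submitters' processing notes name cutadapt 1.8.1, STAR 2.7.6a, RSEM 1.3.1, featureCounts 1.6 and SAMtools 1.11 and the builds GRCm38.p6 and mm10. The annotation release and the strand setting are not given in the sources used here, and per the labels' protocols the kit was stranded with ribosomal RNA depletion from 200 ng of total RNA. Symbols matched 55154 of 55421 identifiers.

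Expected counts were rounded, libraries with equal labels summed, genes filtered with filterByExpr (minimum count 10) and scaled by TMM (factors 0.91 to 1.063). Each comparison was tested with edgeR 4.0.16 (R 4.3.3) by the quasi-likelihood F test in 1 fit of all 32 samples with a coefficient per group, adjusted by Benjamini-Hochberg over all 19478 genes and called under 0.05. SE is the log2 fold change divided by the root of F, and intervals are 95% with 24 residual degrees of freedom. P-values measure the spread between these mice, and sham and stimulated slices of 1 mouse are not independent. The fit was tested on simulated data. The labels gave each library's mouse, batch and group. Slices of 1 mouse are paired by the mouse number, and in 14 mice their deviations from the group means correlated at 0.29 on average (0.05 to 0.55).

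Named were the 10 genes, from each list up to 2 called genes per direction with the largest change averaging at least 1 CPM, and the 3 nearest genes of 5 members. Genes named outside this rule (Ctss, Ifng, Pdcd1, the promoter factors, and list genes given by their level alone) were chosen after their values were seen. The members and lists were chosen with earlier results of these data known. Some genes of these lists are counted in the sums but not reported here by name. Alternatives were DESeq2 1.42.0, RLE scaling, no filter, mouse as a block, batch as a covariate, only the groups compared, either library of a pair, leaving out each mouse, and, chosen after seeing the data, leaving out the T41B library of lowest Thy1 and, for correlations and counts at an unadjusted p, Mouse1572.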

Additional observations from a re-analysis of the deposited data

Results flagged for a closer look

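In groups of 4 or 5 samples, 60 sets of values of the 10 genes were searched for a sample whose gap to its nearest neighbour is large against the range of the group, and 14 were found. For normally distributed values chance alone marks about 1 in 20 such sets. The values searched were CPM without a log, and whether they follow that distribution was not tested. The sets are also not independent, since the class II genes vary together.

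Mouse1572, a stimulated slice of the T41B BD10-2 group, was flagged as the highest sample for 5 genes: H2-Aa at 72.6 CPM (next 19), H2-Ab1 at 67.4 CPM (next 16.1), H2-Eb1 at 59.2 CPM (next 11), Cd74 at 320 CPM (next 102) and H2-DMb1 at 9.04 CPM (next 2.34). It was also the highest of its group for Ciita and H2-DMa, without a flag. Mouse1564, a sham slice of the T41B BD10-2 group, was flagged as the highest for 4 genes: H2-Aa at 23.4 CPM (next 8.4), H2-Eb1 at 13.3 CPM (next 5.77), Cd74 at 113 CPM (next 39.9) and Ciita at 0.52 CPM (next 0.265). It was also the highest of its group for H2-Ab1, without a flag. The sham wild-type vehicle slice of Mouse1513 was the highest for H2-Eb1 at 0.793 CPM (next 0.237) and the lowest for Cd86 at 2.88 CPM (next 3.68). The stimulated wild-type vehicle slice of Mouse1524 was the highest for Ciita at 0.676 CPM (next 0.463) and for Icosl at 16.3 CPM (next 13.7). The sham T41B vehicle slice of Mouse1553 was the lowest for Icosl at 11.7 CPM (next 14.2).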

How the results depend on the processing

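The 10 genes gave 46 calls, which were recomputed 705 times in all: 617 kept direction and call, 88 lost the call and 0 reversed. Under a replicate block for the mouse, 1 gene was called for stimulation in wild-type BD10-2 slices (2 without the block), 7 in T41B vehicle slices (4) and 4 in T41B BD10-2 slices (7). The block did not change the other counts it could be run for (stimulation in wild-type vehicle slices and the interactions). In the latter arm 4 were also called with batch as a covariate, with only the groups compared and with the first library of each pair. Batch as a covariate left 3 of 7 for genotype in stimulated vehicle slices, and the second library of each pair left 4 of 8 in sham BD10-2 slices. Leaving out 1 mouse gave 1 to 2 for stimulation in wild-type vehicle and in wild-type BD10-2 slices, 4 to 8 in T41B BD10-2 slices and 4 to 7 for genotype in sham BD10-2 slices. The cause was not tested. Treatment comparisons could not be fitted with batch, and they and the interactions gave 0 of the 10 under every alternative run. Low counts limit the wild-type class II values, since 0 to 38 reads of H2-Aa, H2-Ab1 or H2-Eb1 were found per wild-type sample.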
